A study of Mus musculus with 20 samples.

Results

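The nuclear-encoded subunits of the mitochondrial respiratory chain and ATP synthase were followed in abdominal skin of mice that received imiquimod cream or vehicle on a high fat or a control diet. Members were genes whose symbol starts with Nduf followed by a, b, c, s or v and a digit (complex I), is Sdha, Sdhb, Sdhc or Sdhd (complex II), or starts with Uqcr (complex III), Cox and a digit from 4 to 8 (complex IV) or Atp5 (complex V). Each gene was read from the array feature that carries exactly 1 symbol and has the highest mean over the 20 arrays. The rule gave 80 of the 22180 genes measured in this way, with 33 in complex I, 4 in complex II, 8 in complex III, 17 in complex IV and 18 in complex V. Among them are 2 genes named as pseudogenes, Uqcrh-ps1 and Atp5c1-ps. A further 9 symbols that fit the rule, among them Cox6c, Ndufs6 and Uqcr10, sit on features shared with other genes and were not analysed here, nor were the subunits encoded by mitochondrial DNA.

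All 20 mice were of the C57/B6 strain and 9 weeks old, and 1 array was made per mouse. The 4 groups of 5 mice were HFD-IMQ (high fat diet and imiquimod), HFD-vehicle (high fat diet and vehicle), CD-IMQ (control chow and imiquimod) and CD-vehicle (control chow and vehicle). Imiquimod (IMQ) activates an endosomal Toll-like receptor, and mouse skin treated with it is studied as a model of psoriasis. The shaved belly got 62.5 mg of 5% cream, or vehicle, each day for 5 days, and the mice were killed 24 h after the last dose. The composition and length of the high fat diet are not given in the labels. A level below is the deposited log2 value, a change is a difference of log2 values, and a gene was called when its Benjamini-Hochberg adjusted p in limma, over all 22180 genes of a comparison, was below 0.05.

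The respiratory chain passes electrons from NADH (through complex I) and succinate (through complex II) by way of complexes III and IV to oxygen. Complexes I, III and IV pump protons, and the ATP synthase, complex V, uses the proton gradient to make ATP. Brown and beige adipocytes and skeletal muscle fibres are rich in this machinery. Complex IV also has subunit isoforms that in mice occur mainly in heart, skeletal muscle or brown fat, such as Cox6a2, Cox7a1 and Cox8b. In whole skin, fewer cells of a type and less RNA per cell cannot be told apart.

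The array is a sum over the cells of the sample, and the labelled tissue was checked against markers. The mean of 7 measured keratinocyte genes lay between 8.78 and 9.38 in HFD-IMQ, 8.55 and 8.95 in HFD-vehicle, 8.94 and 9.33 in CD-IMQ and 7.39 and 8.42 in CD-vehicle skin, against array medians of 2.86 to 3.04 over all features. Skeletal muscle genes were also well measured, with a mean of 23 genes between 5.34 and 7.32 over all arrays, and so were 11 white adipocyte genes (7.11 to 9.31). Ucp1, the uncoupling protein that defines thermogenic adipocytes, was 7.16 in CD-IMQ mouse 2, 8.14 in HFD-IMQ mouse 3 and 9.58 in HFD-IMQ mouse 4, and between 2.23 and 3.18 in the other 17 mice. Many results are therefore also given without these 3 arrays, a choice made after seeing the data. Of the 80 members, 5 had means at or below the highest array median in all 4 groups (Atp5c1-ps, Cox7b2, Cox8c, Ndufs5 and Uqcrh-ps1), and Cox7c and Atp5g1 did so in some groups.

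Promoters are shown for 3 genes that rose with IMQ in HFD-fed mice (Ndufa4, Cox5a and Atp5e) and for 2 genes chosen after their values were seen, Ndufa6 and Cox8b, because they lead the difference between diets and the spread between mice. Each sequence is the 250 bases before the gene's RefSeq start on GRCm38.p6, written 5′ to 3′ on the gene's strand. Capitals mark a match to GCGCATG, the letters used for nuclear respiratory factor 1 (NRF1), or to CCGGAAG, used for ETS factors such as GABP, on either strand. Both factors are known as regulators of respiratory chain genes. The positions are chr6:11907451-11907700 (minus strand) for Ndufa4, chr9:57520982-57521231 (plus) for Cox5a, chr2:174464102-174464351 (minus) for Atp5e, chr15:82354292-82354541 (minus) for Ndufa6 and chr7:140900447-140900696 (minus) for Cox8b.
Ndufa4: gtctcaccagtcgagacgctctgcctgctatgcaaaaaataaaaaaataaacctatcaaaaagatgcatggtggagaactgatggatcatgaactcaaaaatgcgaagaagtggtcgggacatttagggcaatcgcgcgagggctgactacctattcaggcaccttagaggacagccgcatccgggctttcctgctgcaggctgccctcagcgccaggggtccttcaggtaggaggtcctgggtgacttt
Cox5a: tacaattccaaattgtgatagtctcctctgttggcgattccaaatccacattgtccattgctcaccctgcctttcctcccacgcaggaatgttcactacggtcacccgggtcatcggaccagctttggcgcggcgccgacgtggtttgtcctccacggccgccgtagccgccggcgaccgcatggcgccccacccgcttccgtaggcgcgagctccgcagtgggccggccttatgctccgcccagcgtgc
Atp5e: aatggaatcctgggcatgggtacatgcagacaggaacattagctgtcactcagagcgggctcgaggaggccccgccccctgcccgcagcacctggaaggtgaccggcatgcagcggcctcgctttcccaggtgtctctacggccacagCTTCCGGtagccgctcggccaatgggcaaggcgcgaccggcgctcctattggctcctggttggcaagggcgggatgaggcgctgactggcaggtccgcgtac
Ndufa6: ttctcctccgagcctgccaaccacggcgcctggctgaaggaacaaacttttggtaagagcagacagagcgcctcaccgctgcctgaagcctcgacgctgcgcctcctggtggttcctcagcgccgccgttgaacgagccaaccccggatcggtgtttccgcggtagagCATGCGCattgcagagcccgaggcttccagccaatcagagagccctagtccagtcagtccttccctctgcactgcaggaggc
Cox8b: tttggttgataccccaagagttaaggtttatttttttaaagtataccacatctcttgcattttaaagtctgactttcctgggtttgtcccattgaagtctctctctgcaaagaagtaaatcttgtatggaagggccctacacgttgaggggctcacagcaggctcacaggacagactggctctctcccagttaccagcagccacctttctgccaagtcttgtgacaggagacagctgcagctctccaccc
The Atp5e window holds 1 ETS match and the Ndufa6 window 1 NRF1 match, and no match to these letters lies in the windows of Ndufa4, Cox5a and Cox8b.

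Over all members, 64 genes with 69 promoters were found in the RefSeq table. The NRF1 letters lay in 14.5% of these 69 promoters, against 3.24% of all 32851 promoters of the same length. The ETS letters lay in 17.4% of the member promoters, against 6.91% of all, and either motif in 27.5%, against 9.72%. The 7-letter motifs do not overlap each other in the sequences shown. The shares are descriptions of letters, not of binding.

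IMQ in HFD-fed mice was accompanied by small upward differences across the chain. The change was positive for 77 of 80 members and negative for 3 (Ndufb11, Cox6a2 and Atp5g1), with a median of 0.22, against -0.00067 over all 22180 genes, of which 49.8% were positive. The test called 5 members higher and 0 lower, while 3.65% of all genes were called higher and 2.24% lower. Genes at least as bright as the median member had a median change of 0.041, and 10.2% of them were called higher, so the share of members called was not above that of bright genes. Unadjusted p was below 0.05 for 24 members, all of them higher, and for 16.7% of all genes in either direction. The called members were Ndufa4, Cox5a, Atp5e, Cox4i1 and Cox7c. The difference was smaller without the 3 arrays with high Ucp1: the median then was 0.063, 51 members were positive, 9 had an unadjusted p below 0.05, and 0 were called in limma. That fit held 3 HFD-IMQ mice. The shares of all genes positive, called or with an unadjusted p below 0.05 in it are not given here, so these counts cannot be set against them.

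Markers of other cell types moved with this comparison. Of 6 macrophage markers 5 were called higher, with a median change of 0.62 and a mean of 8.77 to 9.22 in HFD-IMQ, against 7.66 to 8.34 in HFD-vehicle mice. All 5 measured sebocyte markers were called lower, with a median change of -1.48 and a mean of 5.41 to 6.35 in HFD-IMQ, against 7.00 to 7.73 in HFD-vehicle mice. On chow, 2 of the 6 macrophage markers were called higher and 1 of the 5 sebocyte markers lower. Of 23 skeletal muscle markers, 19 had a negative change on the high fat diet (median -0.50), with 1 called higher and 2 lower. On chow 19 of the 23 were negative too (median -0.30), with 0 called higher and 1 lower. The part of these tissues and cells in the member differences was not tested.

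Ndufa4, named after complex I and since assigned to complex IV, had log2 levels of 9.43, 9.54, 9.77, 9.95 and 9.73 in HFD-IMQ mice, against 9.12, 9.15, 9.24, 9.27 and 9.19 in HFD-vehicle mice. Every HFD-IMQ mouse was above every HFD-vehicle mouse. The change was 0.49 ± 0.11 (SE), or 1.40-fold, with an adjusted p of 0.00604 in limma. It was 0.37 ± 0.11 without the 3 arrays, with an adjusted p of 0.073.

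Cox5a, a structural subunit that sits on the matrix side of complex IV, had levels of 7.53, 7.58, 7.68, 7.92 and 7.43 in HFD-IMQ mice, against 6.98, 7.04, 7.25, 6.83 and 7.14 in HFD-vehicle mice. The groups did not overlap, and the HFD-IMQ mice with high Ucp1 (mice 3 and 4) were the highest. The change was 0.58 ± 0.14, or 1.50-fold, with an adjusted p of 0.0101 in limma, and 0.47 ± 0.15 without the 3 arrays (adjusted p of 0.0963). The call was kept when each array was left out in turn.

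Cox4i1, the widespread isoform of the nuclear subunit through which complex IV is known to respond to ATP, had levels of 8.16, 8.37, 8.55, 8.83 and 8.18 in HFD-IMQ mice, against 7.90, 7.93, 7.87, 7.87 and 7.94 in HFD-vehicle mice. HFD-vehicle mice lay within a narrow band (SD 0.03), and all HFD-IMQ mice were above it. The change was 0.52 ± 0.14, or 1.43-fold, with an adjusted p of 0.031 in limma. Without the 3 arrays it was 0.33 ± 0.12 (adjusted p of 0.129). The call was also lost without any single HFD-vehicle mouse, where the change was 0.51 to 0.53 (adjusted p of 0.0501 to 0.0613), without HFD-IMQ mouse 3 (0.48, adjusted p of 0.0776) and without HFD-IMQ mouse 4 (0.41, adjusted p of 0.0902).

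Cox7c, a small transmembrane subunit of complex IV, had levels of 2.88, 2.98, 3.10, 3.36 and 3.51 in HFD-IMQ mice, against 2.70, 2.68, 2.69, 2.67 and 2.65 in HFD-vehicle mice. The groups did not overlap, but the levels are close to the array medians, so this feature is dim. The change was 0.49 ± 0.14 with an adjusted p of 0.0445 in limma, and 0.44 ± 0.17 without the 3 arrays (adjusted p of 0.178). The call was lost under 15 of 29 alternatives, with an adjusted p of 0.0626 when the replicate number was a block and 0.142 without HFD-IMQ mouse 5.

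Atp5e, the epsilon subunit of the rotor stalk of ATP synthase, had levels of 6.87, 7.06, 7.37, 7.38 and 7.23 in HFD-IMQ mice, against 6.81, 6.40, 6.82, 6.65 and 6.69 in HFD-vehicle mice. The groups did not overlap, with the lowest HFD-IMQ mouse just above the highest HFD-vehicle mouse. The change was 0.51 ± 0.12, or 1.42-fold, with an adjusted p of 0.0138 in limma, and 0.38 ± 0.13 without the 3 arrays (adjusted p of 0.135). The call was also lost without HFD-vehicle mouse 2 (0.44, adjusted p of 0.0536) and with the mean over the gene's features in place of the brightest (0.38, adjusted p of 0.0596).

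**Figure D1:**
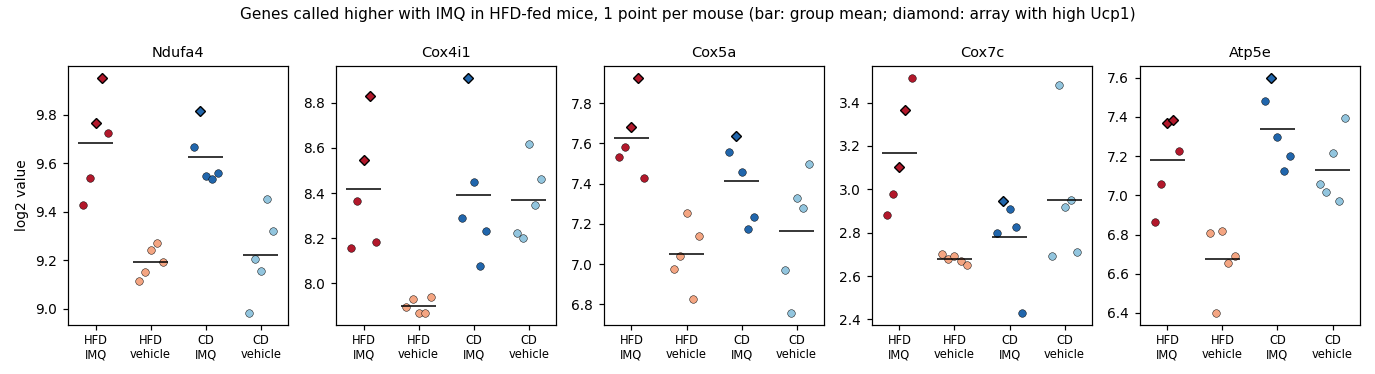
The log2 value of Ndufa4, Cox4i1, Cox5a, Cox7c and Atp5e in each of the 20 mice (vertical axes, which differ between panels), with 5 mice per group and a bar at the group mean. In all 5 panels the HFD-IMQ mice lie above the HFD-vehicle mice, and diamonds mark the 3 arrays with high Ucp1.

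Taken by complex, the median change with IMQ in HFD-fed mice was 0.22 in complex I, 0.33 in complex II, 0.27 in complex III, 0.28 in complex IV and 0.13 in complex V. With the 3 arrays left out the medians were 0.061, 0.024, 0.11, 0.092 and 0.059 for complexes I to V. HFD-IMQ and HFD-vehicle mice did not overlap for 12 members, all higher in HFD-IMQ, while 3.67% of all genes were higher with no overlap. Counted by symbol, 5 of these 12 are complex I genes (Ndufa4, Ndufa8, Ndufb10, Ndufb5 and Ndufs4). Another 5 are complex IV genes (Cox4i1, Cox5a, Cox6b1, Cox7a2l and Cox7c) and 2 are complex V genes (Atp5e and Atp5pb). Of the 33 members counted in complex I by symbol, 32 had a positive change. Ndufa4 alone was called, a gene since assigned to complex IV, so no other gene of this count was called. In complex III all 8 members, and in complex II all 4, had positive changes with 0 called in limma. When the 3 arrays were left out, 5 of 8 and 2 of 4 were positive.

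The mean of the complex I members was 6.29, 6.35, 6.56, 7.10 and 6.36 in HFD-IMQ mice, against 6.31, 6.29, 6.37, 6.25 and 6.24 in HFD-vehicle mice. HFD-IMQ mouse 4 lies far above the other 4 of its group, which are close to the HFD-vehicle range. The complex II mean had the same shape, with 6.81, 6.99, 7.11, 8.06 and 6.82 in HFD-IMQ mice, against 6.92, 6.79, 6.82, 6.64 and 6.76 in HFD-vehicle mice. The difference between these group means was smallest for complex V, at 6.64 ± 0.18 in HFD-IMQ and 6.49 ± 0.08 in HFD-vehicle mice (SD, n = 5 each).

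**Figure D2:**
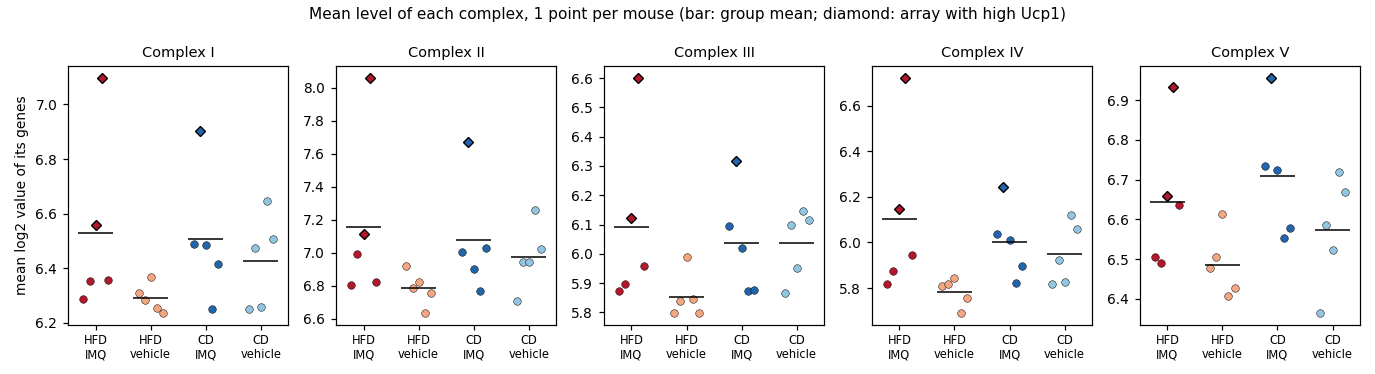
The mean log2 value of the genes of each complex (vertical axes, which differ between panels) in each mouse, with a bar at the group mean of 5 mice and diamonds at the 3 arrays with high Ucp1. HFD-IMQ mouse 4 is the highest mouse for complexes I to IV, CD-IMQ mouse 2 is the highest for complex V, and HFD-vehicle mice lie close together.

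Succinate dehydrogenase, the enzyme that links the tricarboxylic acid cycle to the chain, was measured in full. Sdha, its flavoprotein, had levels of 7.95, 8.17, 8.32, 9.31 and 7.92 in HFD-IMQ mice, against 8.03, 8.03, 7.96, 7.98 and 8.19 in HFD-vehicle mice. Apart from mouse 4, HFD-IMQ mice lay near the HFD-vehicle range, and the change of 0.30 ± 0.23 had an adjusted p of 0.594 in limma. Sdhb, the iron-sulfur subunit, changed by 0.31 ± 0.19 (adjusted p of 0.44 in limma), and the membrane anchor Sdhc by 0.35 ± 0.20 (0.426). Without HFD-IMQ mouse 4 the changes were 0.05 for Sdha, 0.10 for Sdhb and 0.10 for Sdhc, and without the 3 arrays they were -0.02, -0.01 and 0.06.

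Sdhd, the other membrane anchor, had the smallest p of complex II in both diets. Its levels were 6.65, 6.73, 6.72, 7.64 and 6.63 in HFD-IMQ mice, against 6.72, 6.41, 6.48, 6.00 and 6.04 in HFD-vehicle mice. On the control diet they were 6.67, 7.40, 6.63, 6.50 and 6.79 in CD-IMQ mice, against 6.07, 6.54, 6.16, 6.75 and 6.18 in CD-vehicle mice. The groups overlap in both diets, with changes of 0.54 ± 0.20 on the high fat diet and 0.46 ± 0.20 on chow (adjusted p of 0.133 and 0.158 in limma). Without the 3 arrays they were 0.34 ± 0.17 and 0.31 ± 0.16.

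In complex III, the hinge protein gene Uqcrh had the smallest p, with a change of 0.34 ± 0.13 (adjusted p of 0.142 in limma). The core subunit Uqcrc1 changed by 0.31 ± 0.14 and the Rieske iron-sulfur protein gene Uqcrfs1 by 0.34 ± 0.15, neither of them called, and both by 0.12 without the 3 arrays. In complex V, Atp5b and Atp5a1, which encode the catalytic beta and the alpha subunit, had changes of 0.04 ± 0.19 and 0.06 ± 0.14, with 95% intervals of -0.35 to 0.43 and -0.22 to 0.34. They were -0.26 and -0.09 without the 3 arrays. They were chosen after their values were seen.

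IMQ in CD-fed mice moved the members less evenly. The test called 1 member higher, Ndufa4, and 0 lower, while 3.91% of all genes were called higher and 7.02% lower. The change was positive for 54 of 80 members and the median was 0.082, against 0.016 over all genes, of which 53.0% were positive. Complex medians were 0.087 for complex I, 0.076 for complex II, -0.026 for complex III, 0.13 for complex IV and 0.096 for complex V. Unadjusted p was below 0.05 for 8 members that were higher and 1 that was lower, 9 of 80, and for 23.6% of all genes. Without the 3 arrays the median was -0.0052, with 39 members positive, Ndufa4 called higher and Ndufa6, Cox8b and Ndufb3 called lower. The medians of complexes I to V were then -0.020, -0.058, -0.089, 0.051 and 0.059. The shares of all genes called without the 3 arrays are not given here, so these calls cannot be set against them.

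Ndufa4 had levels of 9.67, 9.82, 9.55, 9.53 and 9.56 in CD-IMQ mice, against 8.98, 9.20, 9.15, 9.45 and 9.32 in CD-vehicle mice. All CD-IMQ mice were above all CD-vehicle mice, and no other member had non-overlapping groups, while 3.78% of all genes did so upward. The change was 0.40 ± 0.11, or 1.32-fold, with an adjusted p of 0.0172 in limma, and 0.35 ± 0.11 without the 3 arrays (adjusted p of 0.0346). Its call was lost without CD-vehicle mouse 1 (adjusted p up to 0.0568 over all alternatives).

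In complex V the smallest p with IMQ on chow was that of Atp5g2, a gene for the c ring subunit of ATP synthase. Its levels were 8.31, 8.35, 8.32, 8.25 and 8.45 in CD-IMQ mice, against 7.75, 8.11, 7.76, 8.33 and 7.89 in CD-vehicle mice. CD-IMQ mice lay within a narrow band that 1 CD-vehicle mouse reached, and the change was 0.37 ± 0.12 with an adjusted p of 0.0502 in limma. The positive change of greatest size was that of Atp5d, the delta subunit of the rotor stalk, at 0.72 ± 0.25 (adjusted p of 0.0642), named after its values were seen. In complexes III and IV the smallest p belonged to Uqcrc1 (0.26 ± 0.14, adjusted p of 0.291) and Cox7a2 (0.29 ± 0.14, adjusted p of 0.205).

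Ndufa6, an accessory subunit of complex I, was among the members on the low side. Its levels were 7.57, 8.01, 7.75, 7.31 and 7.40 in CD-IMQ mice, against 7.74, 7.98, 7.96, 8.01 and 8.09 in CD-vehicle mice. Of the CD-IMQ mice, number 2 was within the CD-vehicle range and number 3 just inside it. The change was -0.35 ± 0.14 (adjusted p of 0.124 in limma), and -0.45 ± 0.11 with an adjusted p of 0.010 without the 3 arrays. Ndufb3, another accessory subunit, changed by -0.27 ± 0.18 with all arrays and by -0.41 ± 0.13 without the 3 (adjusted p of 0.04).

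**Figure D3:**
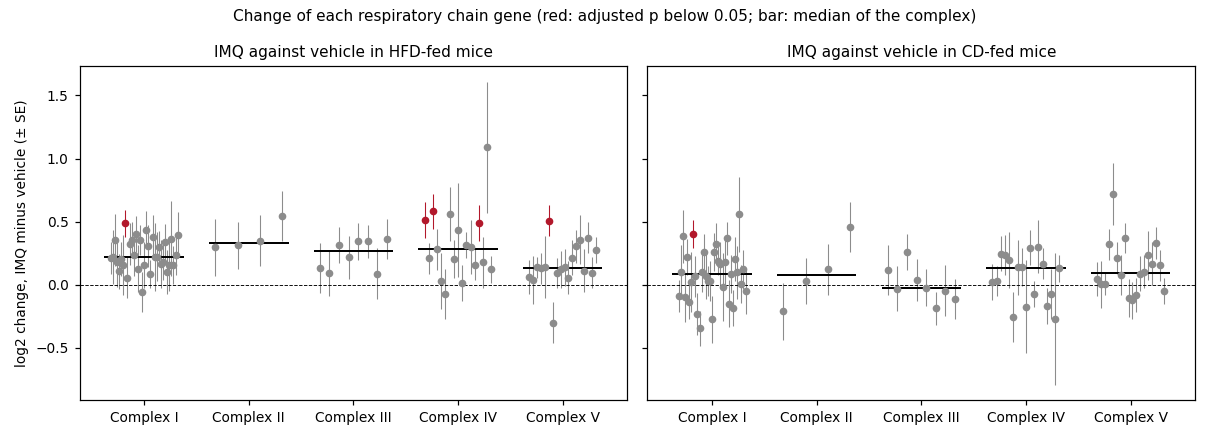
The log2 change with IMQ of each of the 80 members (points, with SE as lines), grouped by complex, in HFD-fed mice on the left and CD-fed mice on the right, with bars at complex medians. Red points are the 5 members called higher on the high fat diet and Ndufa4, called higher on chow.

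HFD against CD in vehicle-treated skin gave mostly negative differences. The change was negative for 64 of 80 members, with a median of -0.15, against -0.0080 over all genes, of which 51.8% were negative. The test called 0 members in limma, while 1.22% of all genes were called higher and 0.956% lower. Unadjusted p was below 0.05 for 12 members that were lower and 1 that was higher, 13 of 80, and for 14.7% of all genes. The median was -0.14 in complex I, -0.23 in complex II, -0.17 in complexes III and IV and -0.079 in complex V. This comparison shares its HFD-vehicle mice with IMQ in HFD-fed mice, so the signs of both rest in part on the same 5 arrays.

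HFD-vehicle mice lay below all CD-vehicle mice for 9 members, while 2.3% of all genes were lower with no overlap. The 9 were Ndufa6, Ndufb10, Ndufs4, Uqcrq, Cox4i1, Cox8b, Atp5e, Atp5k and Atp5pb. Cox4i1 had 7.90, 7.93, 7.87, 7.87 and 7.94 in HFD-vehicle mice, against 8.22, 8.20, 8.62, 8.35 and 8.46 in CD-vehicle mice, a change of -0.47 ± 0.14 (adjusted p of 0.0873 in limma). Atp5e had 6.81, 6.40, 6.82, 6.65 and 6.69 in HFD-vehicle mice, against 7.06, 7.02, 7.21, 6.97 and 7.39 in CD-vehicle mice, a change of -0.46 ± 0.12 (adjusted p of 0.0552). The means of the other 3 groups lay between 8.37 and 8.42 for Cox4i1 and between 7.13 and 7.34 for Atp5e.

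Atp5k, subunit e of the membrane part of ATP synthase, was named after its values were seen. It had 7.04, 7.37, 7.00, 6.73 and 7.00 in HFD-vehicle mice, against 7.40, 7.57, 7.45, 7.55 and 7.56 in CD-vehicle mice. The groups did not overlap, and the change was -0.48 ± 0.13 (adjusted p of 0.0587 in limma). Ndufa6 had 7.48, 7.52, 7.61, 7.45 and 7.53 in HFD-vehicle mice, against the CD-vehicle values above, a change of -0.44 ± 0.14 (adjusted p of 0.11). Uqcrh changed by -0.41 ± 0.13 (adjusted p of 0.106) and Sdhc by -0.27 ± 0.20 (adjusted p of 0.595). When the 3 arrays, all of IMQ-treated mice, were left out of the fit, the estimate of spread was smaller and 5 members were called lower in limma. They were Cox4i1 (adjusted p of 0.019), Ndufa6 (0.0282), Atp5k (0.0288), Cox8b (0.0343) and Atp5e (0.0446). Their changes were the same as with all arrays, because no vehicle array was left out. The shares of all genes called in that fit are not given here, so these calls cannot be set against them.

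Hair follicle genes moved with this comparison. All 12 measured hair matrix and inner root sheath markers were considered, and 11 were called higher in HFD-vehicle than in CD-vehicle skin, with a mean between 6.12 and 9.22 in HFD-vehicle mice, against 2.96 and 5.13 in CD-vehicle mice. The highest mean, 9.22, was that of HFD-vehicle mouse 3, an array that stood apart with 42.8% of the squared distances of its group from the group mean over all genes. Without it the median over members was -0.17 for HFD against CD under vehicle, again with 0 called in limma. With IMQ on the high fat diet, all 12 had a negative change and 11 were called lower. The mean of the 12 was 2.78 to 4.04 in HFD-IMQ mice, while in CD-IMQ mice it was 2.88 to 3.24. White adipocyte markers had a median change of -0.36 for HFD against CD under vehicle, with 0 of 11 called in limma, and skeletal muscle markers one of -0.24, with 0 of 23 called. Neutrophil markers, with 5 of 6 called higher by IMQ in each diet, had means of 6.26 to 6.73 in HFD-IMQ, 3.52 to 4.19 in HFD-vehicle, 5.86 to 6.41 in CD-IMQ and 2.77 to 3.61 in CD-vehicle mice. The part of these cell types in the member differences was not tested.

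HFD against CD in IMQ-treated skin showed no called member in limma, and 0% of all genes were called. The median change was 0.028, with 48 of 80 members positive, and unadjusted p was below 0.05 for 4 members, of which 2 were higher and 2 lower, and for 10.3% of all genes. Complex medians lay between -0.077 (complex V) and 0.086 (complex IV). The smallest p in complex I was that of Ndufa6 (0.26 ± 0.14, adjusted p of 0.521) and in complex IV that of Cox7c (0.38 ± 0.14, adjusted p of 0.382). Sdha changed by 0.21 ± 0.23, Uqcrfs1 by 0.20 ± 0.15 and Atp5c1-ps, a dim pseudogene feature, by -0.36 ± 0.12 (adjusted p of 0.343). These were 0.07, 0.07 and -0.14 without the 3 arrays. Without the 3 arrays the median was -0.066, with 59 members negative and 0 called, and complex medians lay between -0.091 (complex V) and -0.025 (complex III).

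The difference between diets in the IMQ change (the change on the high fat diet minus that on chow) was tested directly. It was positive for 60 of 80 members with a median of 0.13, against -0.0010 over all genes, and genes at least as bright as the median member had a median of 0.11. The test called 0 members in limma, while 0.473% of all genes were called with a positive and 0.189% with a negative difference. Unadjusted p was below 0.05 for 9 members, all positive, and for 15.9% of all genes in either direction. The median was 0.13 in complex I, 0.25 in complex II, 0.16 in complex III, 0.18 in complex IV and 0.084 in complex V. Without the 3 arrays the median over members was 0.029, 45 were positive, and the medians of complexes I to V were 0.016, 0.082, 0.12, 0.030 and 0.019.

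The 5 members with the smallest p for this difference were Ndufa6, Cox7c, Uqcrh, Cox7a2l and Ndufs4. Ndufa6 changed with IMQ by 0.35 ± 0.14 on the high fat diet and by -0.35 ± 0.14 on chow, a difference of 0.70 ± 0.20 with an adjusted p of 0.0916 in limma. It was 0.63 ± 0.16 without the 3 arrays (adjusted p of 0.0736). Cox7c differed by 0.66 ± 0.20 and Uqcrh by 0.53 ± 0.18 (adjusted p of 0.112 and 0.15 in limma). Ndufs4, an accessory subunit of the module that takes electrons from NADH, differed by 0.52 ± 0.21.

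Cox7a2l, a factor known for joining complexes III and IV into supercomplexes, differed by 0.39 ± 0.14 (adjusted p of 0.186 in limma). Its levels were 5.95, 5.87, 5.92, 6.01 and 6.01 in HFD-IMQ mice, against 5.63, 5.63, 5.42, 5.79 and 5.71 in HFD-vehicle mice. On chow they were 5.79, 5.72, 5.91, 5.45 and 5.77 in CD-IMQ mice, against 5.71, 5.93, 5.72, 6.00 and 5.65 in CD-vehicle mice. The groups did not overlap on the high fat diet and did on chow. HFD-IMQ mice 3 and 4 did not stand out, and the difference was 0.38 ± 0.17 without the 3 arrays (adjusted p of 0.283).

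Cox8b and Cox7a1, tissue-restricted isoforms of complex IV, had the greatest SDs of all members in HFD-IMQ mice (1.62 and 1.27), and Cox8b also in CD-IMQ mice (0.99). Cox8b had levels of 5.41, 5.60, 7.58, 9.20 and 5.92 in HFD-IMQ mice, against 5.89, 5.60, 5.61, 5.55 and 5.61 in HFD-vehicle mice. On chow it had 6.28, 7.73, 5.58, 5.25 and 5.61 in CD-IMQ mice, against 6.33, 6.34, 5.89, 6.54 and 6.71 in CD-vehicle mice. The 3 highest values of the 20 belong to the 3 mice with high Ucp1. The change with IMQ was 1.09 ± 0.52 on the high fat diet and -0.27 ± 0.52 on chow, neither called in limma. Without the 3 arrays these were -0.01 ± 0.20 and -0.68 ± 0.18, the second called lower with an adjusted p of 0.0188.

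Cox7a1 had levels of 5.16, 5.27, 6.36, 8.17 and 5.37 in HFD-IMQ mice, against 5.67, 5.78, 5.54, 5.58 and 5.61 in HFD-vehicle mice. On chow it had 6.20, 6.24, 5.74, 5.65 and 5.80 in CD-IMQ mice, against 6.14, 5.78, 5.67, 6.30 and 6.59 in CD-vehicle mice. HFD-IMQ mouse 4 was far above all others, and CD-IMQ mouse 2 was within the CD-vehicle range. The change on the high fat diet was 0.43 ± 0.37 with all arrays and -0.37 ± 0.17 without the 3 (adjusted p of 0.657 and 0.311 in limma), so its sign rests on them.

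Cox6a2, the muscle and heart isoform of subunit 6a, went the other way in 2 of these mice. Its levels were 6.05, 6.32, 5.68, 6.14 and 6.23 in HFD-IMQ mice, against 6.46, 6.33, 6.13, 5.92 and 5.93 in HFD-vehicle mice. On chow they were 6.64, 5.66, 6.20, 5.98 and 6.01 in CD-IMQ mice, against 6.79, 6.14, 5.62, 6.56 and 6.67 in CD-vehicle mice. HFD-IMQ mouse 3 and CD-IMQ mouse 2 were the lowest of their groups. In the same mice the mean of the muscle markers was also the lowest of the group, at 5.34 and 6.10. The changes were -0.07 ± 0.20 on the high fat diet and -0.26 ± 0.20 on chow, and 0.05 and -0.15 without the 3 arrays.

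The widespread partners showed no call other than Cox4i1 and Ndufa4. Cox8a had levels of 8.08, 8.22, 8.54, 9.51 and 8.24 in HFD-IMQ mice, against 8.48, 8.35, 8.46, 8.21 and 8.21 in HFD-vehicle mice, with a change of 0.18 ± 0.20. Cox7a2 changed by 0.01 ± 0.14 on the high fat diet and Cox6a1 by 0.03 ± 0.22. In each of these 3 genes HFD-IMQ mouse 4 was the highest of its group. Cox6b1 changed by 0.56 ± 0.22 (adjusted p of 0.159 in limma), with 8.82 in HFD-IMQ mouse 4, 7.33 to 7.64 in the other 4 HFD-IMQ mice and 7.03 to 7.31 in HFD-vehicle mice. Cox7b changed by 0.30 ± 0.21. With the 3 arrays left out the changes were -0.16 for Cox8a, -0.17 for Cox7a2, -0.25 for Cox6a1, 0.24 for Cox6b1 and 0.04 for Cox7b, so that those of Cox8a, Cox7a2 and Cox6a1 turned in sign.

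Of the other restricted isoforms, Cox4i2, found mainly in lung, changed by 0.21 ± 0.12 on the high fat diet and 0.03 ± 0.12 on chow, with group means between 3.63 and 3.85. Cox6b2, an isoform of testis, had group means between 3.07 and 3.27. Cox7b2 and Cox8c were dim, with means between 1.11 and 1.33 and between 1.43 and 1.59. Ndufa4l2, the hypoxia-induced relative of Ndufa4, changed by 0.06 ± 0.16 and 0.07 ± 0.16, with 95% intervals of -0.28 to 0.39 and -0.27 to 0.40, and by 0.14 and 0.15 without the 3 arrays. In HFD-IMQ mouse 4 it had 6.20, the lowest of its group, where the other 4 had 6.55 to 6.62.

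**Figure D4:**
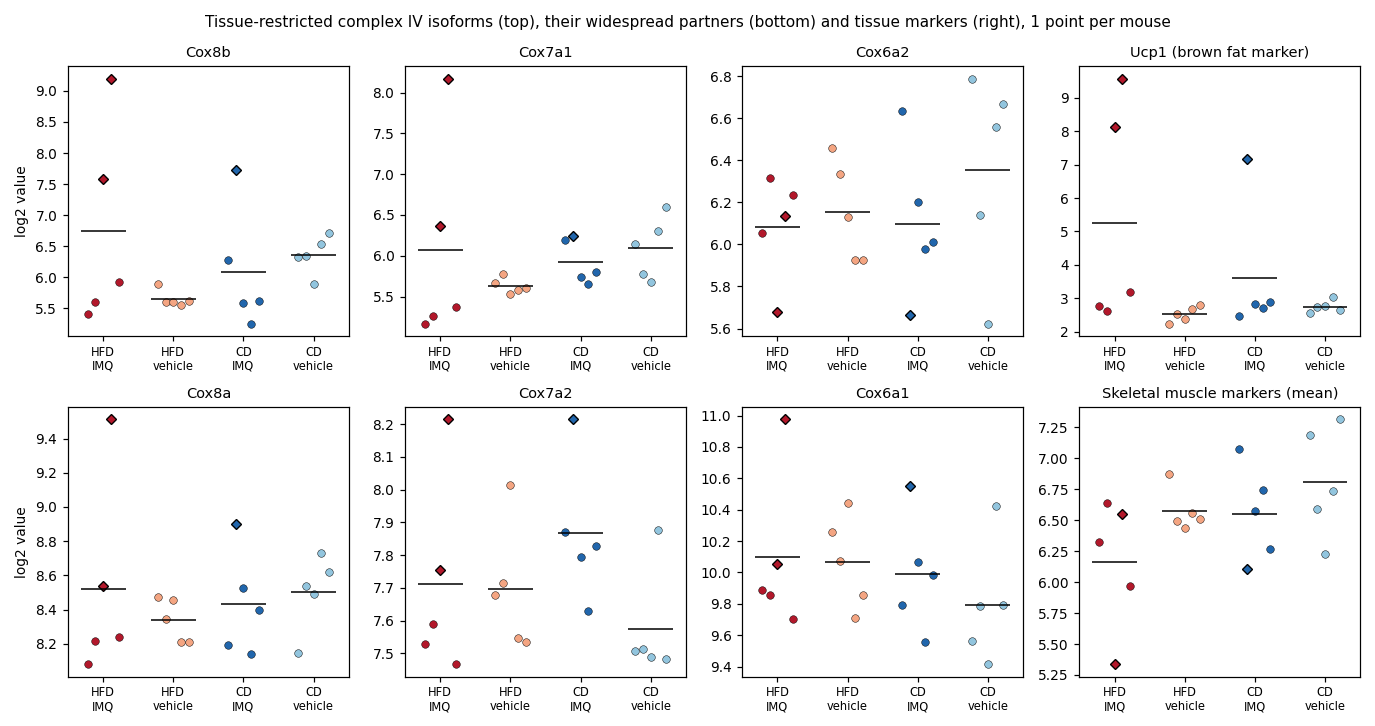
The log2 value per mouse of Cox8b, Cox7a1 and Cox6a2 (top), their widespread partners Cox8a, Cox7a2 and Cox6a1 (bottom), Ucp1 and the mean of the 23 muscle markers (right), with 5 mice per group and bars at group means. Vertical axes differ between panels. The 3 diamonds are the arrays with high Ucp1, which hold the 3 highest Cox8b values, 7.58, 9.20 and 7.73.

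Across mice, HFD-IMQ mouse 4 stood out for the whole chain. It was the highest of the 20 arrays for 53 of 80 members (66.2%), against 6.73% of all genes, and it was above the other 4 HFD-IMQ mice for 66 members, against 21.0% of all genes. CD-IMQ mouse 2 was the highest of its group for 66 members too, and the highest of all arrays for 12. The median excess over the mean of the other 4 mice was 0.69 in HFD-IMQ mouse 4 and 0.43 in CD-IMQ mouse 2. In HFD-IMQ mouse 3, where Ucp1 was also high, it was 0.019, and 3 members were above the rest of the group, against 19.7% of all genes. The rest of that group includes mouse 4, which lowers both values for mouse 3. The mean over members was 6.48 in HFD-IMQ mouse 3, against 6.22, 6.27 and 6.32 in mice 1, 2 and 5 and 6.98 in mouse 4.

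The excess differed between complexes. In HFD-IMQ mouse 4 the median excess was 1.13 in complex II, 0.75 in complex III, 0.74 in complex I, 0.52 in complex IV and 0.24 in complex V. In CD-IMQ mouse 2 it was 0.72 in complex II, 0.49 in complex I, 0.39 in complex III, 0.35 in complex V and 0.28 in complex IV. Cox8b had the greatest excess of all members in all 3 mice with high Ucp1, with 3.07 in HFD-IMQ mouse 4, 2.05 in CD-IMQ mouse 2 and 1.04 in HFD-IMQ mouse 3. Next came Cox7a1 (2.63) and Ndufb9 (1.66), an accessory subunit of complex I, in HFD-IMQ mouse 4, and Ndufb8 (0.91) and Sdha (0.90) in CD-IMQ mouse 2.

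The spread within groups differed. The median SD over members was 0.35 in HFD-IMQ, 0.14 in HFD-vehicle, 0.24 in CD-IMQ and 0.22 in CD-vehicle mice, while over all genes it lay between 0.197 and 0.205 in every group. HFD-IMQ had the greatest SD of the 4 groups for 51 of 80 members, HFD-vehicle for 4, CD-IMQ for 11 and CD-vehicle for 14. With the 3 arrays left out the median SD over members was 0.13 in 3 HFD-IMQ, 0.14 in 5 HFD-vehicle, 0.15 in 4 CD-IMQ and 0.22 in 5 CD-vehicle mice, and CD-vehicle had the greatest SD for 44 members. The median SD over all genes was then 0.170, 0.197, 0.198 and 0.199 in the same order, with unequal numbers of mice. The shares of all genes with their greatest SD in each group are not given here.

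Adipocyte markers moved in part with the same arrays. Ucp1, which chose the 3 arrays, is 1 of the 6 measured of 7 brown adipocyte markers. The mean of the other 5 was 5.85 in HFD-IMQ mouse 4, above the 4.36 to 4.80 of the other 4 HFD-IMQ mice, of which mouse 3 had 4.80. In CD-IMQ mouse 2 it was 5.10, within the range of the other 4 CD-IMQ mice (4.72 to 5.24). With IMQ on the high fat diet 3 of the 6 markers had a positive and 3 a negative change, with a median of -0.064 and 0 called in limma. On chow 5 of the 6 were positive, with a median of 0.23 and 1 called higher in limma, Elovl3 (1.11, adjusted p of 0.0403). Without the 3 arrays the Elovl3 change on chow was 1.23 (adjusted p of 0.0237). Cidea had 8.48 in HFD-IMQ mouse 4, 7.42 in HFD-IMQ mouse 3 and 8.11 in CD-IMQ mouse 2, the highest values of their groups but for mouse 3, which came second. Otop1 had 4.96, 2.84 and 2.66 in the same mice. Elovl3 had 9.62, 8.03 and 9.18, the first the highest and the others the lowest of their groups. Dio2 and Zic1 were at or below the highest array median in all 4 groups, and Cidea and Elovl3 are also known from sebaceous glands. The mean of 11 measured of 12 white adipocyte markers was 9.31 in HFD-IMQ mouse 4 and 8.82 in CD-IMQ mouse 2, the highest of their groups. In the same 2 mice the member mean was 6.98 and 6.75. In CD-vehicle mice 1 to 5 the white adipocyte mean was 7.82, 8.28, 9.05, 9.21 and 8.50, and the member mean was 6.17, 6.37, 6.23, 6.53 and 6.44. With IMQ, 8 of the 11 white adipocyte markers had a negative change on the high fat diet (median -0.057), with 1 called lower. On chow all 11 did (median -0.72), with 2 called lower, and 0 were called higher in either diet. The part of adipose tissue in the member levels was not tested.

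**Figure D5:**
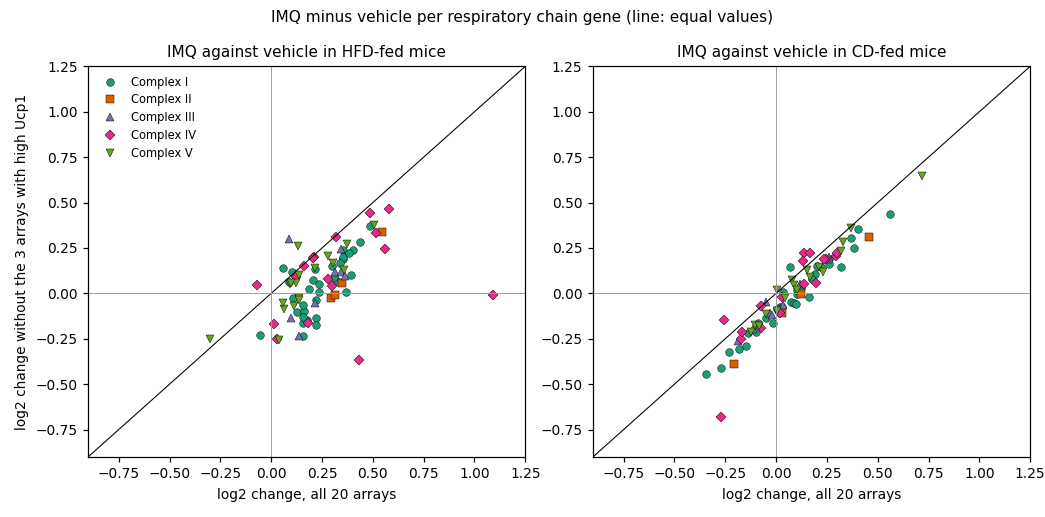
The log2 change with IMQ of each of the 80 members with all 20 arrays (horizontal axis) and without the 3 arrays with high Ucp1 (vertical axis), in HFD-fed mice on the left and CD-fed mice on the right. Most points lie below the line of equal values, and the median moved to 0.063 on the high fat diet and to -0.0052 on chow.

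Other mitochondrial genes gave few calls. Of 44 measured assembly factors of the chain, 3 were called higher with IMQ on the high fat diet and 0 lower, with a median of 0.10. They were Sdhaf2, which aids the insertion of FAD into Sdha (0.44 ± 0.12, adjusted p of 0.0223 in limma), Uqcc3, an assembly factor of complex III (0.42 ± 0.12, 0.0337), and Cox14, one of complex IV (0.41 ± 0.10, 0.0092). When the 3 arrays were left out, the changes were 0.44, 0.37 and 0.38, and none of the 3 was called (adjusted p of 0.0854, 0.174 and 0.0639). On chow 1 was called higher, Coa4, a complex IV assembly factor (0.65 ± 0.11, adjusted p of 0.0005). The median on chow was -0.047, with 28 of the 44 negative and 0 called lower. Sdhaf2 had 6.00, 5.84, 5.92, 5.97 and 6.01 in HFD-IMQ mice, against 5.66, 5.39, 5.44, 5.56 and 5.48 in HFD-vehicle mice, so that the groups did not overlap and mice 3 and 4 did not stand out.

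Among 16 measured regulators of mitochondrial transcription and biogenesis, Ppard, a nuclear receptor that controls fatty acid oxidation, rose with IMQ in both diets. The change was 0.49 ± 0.13 on the high fat diet and 0.55 ± 0.13 on chow (adjusted p of 0.0176 and 0.0057 in limma). Tfb2m, a mitochondrial transcription factor, rose on chow (0.44 ± 0.13, adjusted p of 0.0278). In either diet 0 of the 16 were called lower, though 6 had a negative change on the high fat diet and 8 on chow. When the 3 arrays were left out, Ppard was called on chow but not on the high fat diet (0.51, adjusted p of 0.065). Of 13 tricarboxylic acid cycle genes, Idh2, the mitochondrial isocitrate dehydrogenase, rose on the high fat diet (0.48 ± 0.14, adjusted p of 0.0491) and 0 were called on chow. Idh2 was not called without the 3 arrays (0.40, adjusted p of 0.223). Of 16 genes for electron carriers and nucleotide exchange, 1 was called, the ADP/ATP carrier Slc25a5 on chow (0.41 ± 0.11, adjusted p of 0.0165). Of 71 mitochondrial ribosomal protein genes, 0 were called in limma in either diet, with medians of 0.092 on the high fat diet and 0.037 on chow. Of these lists of mitochondrial genes, 4 were called higher and 7 lower with IMQ on chow when the 3 arrays were left out. The 4 higher were Coa4, Ppard, Slc25a5 and Tfb2m. The 7 lower included Gabpa, a subunit of GABP (-0.46), and Dld and Sucla2 of the tricarboxylic acid cycle list (-0.58 and -0.44). The others were the assembly factors Ecsit and Sdhaf4 (-0.43 and -0.47), the electron carrier Etfa (-0.43) and the ribosomal protein gene Mrps30 (-0.46). The shares of all genes called in that fit are not given here, so these counts cannot be set against them.

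Glycolysis and lactate genes were counted beside them. Of 17 measured, 3 were called higher on the high fat diet and 4 on chow, and 0 were called lower. A negative change was seen for 2 on the high fat diet and 7 on chow. The median of the list was 0.35 on the high fat diet and 0.10 on chow, against 0.22 and 0.082 over the members. Slc2a1, a glucose transporter, changed by 1.20 ± 0.16 on the high fat diet and 1.22 ± 0.16 on chow, and Pgk1, which forms ATP in glycolysis, by 0.61 ± 0.11 and 0.64 ± 0.11. For Slc2a1 the levels were 6.48, 6.10, 6.15, 5.85 and 6.39 in HFD-IMQ mice, against 5.56, 5.05, 5.15, 4.73 and 4.49 in HFD-vehicle mice. All HFD-IMQ mice were above all HFD-vehicle mice. No member of the respiratory chain other than Cox8b had a fitted change with IMQ above 1 on the high fat diet, and none did on chow.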

How the data were processed

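Skin RNA of 20 mice was measured on Affymetrix arrays. Per the submitters' processing notes, the authors used RMA (affy) to make the deposited log2 expression values. For versions, scan batches and detection calls, the sources used here give nothing. The platform annotation gives 23521 of 41345 features a single symbol, 1814 several and 16010 none. The brightest single-symbol feature stood for each of 22180 genes. Members of a family can cross-hybridise, which was not tested. Precision is limited by how many arrays there are. Labels name the mice as biological replicates.

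In R 4.3.3, limma 3.58.1 fitted all genes on the 20 arrays together, 1 mean per group, with eBayes and Benjamini-Hochberg adjustment over each of 5 comparisons. Python 3.11.15 (matplotlib 3.10.9, pandas 2.3.3, numpy 2.4.6) made the tables and figures. The fit was tested on simulated data. The replicate numbers were not taken to pair mice: residuals of same-number arrays correlated between -0.22 and 0.32, and above 0.1 for 4 of 30 such pairs.

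The members, the marker and pathway lists, the tests and the alternatives were chosen with earlier results of these data known. Named were, per comparison, up to 4 called members per complex and direction, or the smallest p where none was called, all Sdh genes, the isoform pairs, the 5 smallest p of the difference between diets, and up to 3 called genes per other list. Genes named beyond this are said to be so. Alternatives were a second quantile normalization, centring on medians, leaving out dim genes, the mean over features, array weights, a trended robust prior, fitting only the groups compared, a replicate block, a threshold of 0.01 and leaving out each array.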

Additional observations from a re-analysis of the deposited data

Results flagged for a closer look

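Within groups of 5 mice, 144 sets of values were looked at (the named members, the 5 complex means and the mean of all members). In 20 of them 1 mouse lay far from the other 4. Chance alone marks about 1 in 20 such groups. These sets share mice and genes and are not independent, so the count is no test against that share. HFD-IMQ mouse 4 was that mouse in 8. It was highest for Cox6a1 (10.98, others 9.70 to 10.06), Cox6b1 (8.82, others 7.33 to 7.64), Ndufa6 (8.43, others 7.60 to 7.82), Sdha (9.31, others 7.92 to 8.32), Sdhc (7.55, others 6.14 to 6.39) and Sdhd (7.64, others 6.63 to 6.73). It was also highest for the mean of complex II (8.06, others 6.81 to 7.11), and it was lowest for Ndufa4l2 (6.20, others 6.55 to 6.62).

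CD-IMQ mouse 2 was far above its group for Cox4i2 (3.85, others 3.58 to 3.65), Sdhb (7.37, others 6.56 to 6.75) and the mean of complex II (7.67, others 6.77 to 7.03). HFD-IMQ mouse 3 was far below for the dim Atp5c1-ps (0.98, others 1.47 to 1.64), and CD-IMQ mouse 5 for the dim Cox7c (2.43, others 2.80 to 2.95). In HFD-vehicle mouse 3, Uqcrc1 (7.67, others 7.33 to 7.38) and the mean of complex III (5.99, others 5.80 to 5.85) were high. In HFD-vehicle mouse 1, Cox8b was high (5.89, others 5.55 to 5.61) and Cox7b low (7.07, others 7.61 to 7.79), and in HFD-vehicle mouse 4 Cox6b2 was low (2.87, others 3.09 to 3.14). In CD-vehicle mouse 4, Cox7a2 was high (7.87, others 7.48 to 7.51) and Cox4i2 low (3.28, others 3.65 to 3.78). The causes of these values were not tested.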

How the results depend on the processing

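The count of members called higher with IMQ in HFD-fed mice, 5 with all arrays, was 0 without the 3 arrays with high Ucp1 (added after seeing the data), 1 at an adjusted p below 0.01, and 2 to 5 when each array was left out. It was 2 without HFD-vehicle mouse 2 and 3 without each of HFD-vehicle mice 1, 4 and 5 and HFD-IMQ mice 3 and 4. With the replicate number as a block, although the numbers were not taken to pair mice, it was 4, and with the mean of all features of a gene it was 4 as well. The count called higher on chow, 1 with all arrays, was 6 after a second quantile normalization, 3 without dim genes, 3 with the mean of all features of a gene, 2 when only the groups compared were fitted, 2 with array weights, 2 with a trended robust prior, 0 at an adjusted p below 0.01, and 0 to 4 when each array was left out. It was 0 without CD-vehicle mouse 1 and 4 without CD-vehicle mouse 4, HFD-vehicle mouse 3 or HFD-IMQ mouse 4. The count called lower on chow, 0 with all arrays, was 3 without the 3 arrays and 0 to 1 when each array was left out. For HFD against CD under vehicle the count called lower, 0 with all arrays, was 2 after the second quantile normalization, 2 without dim genes, 1 with only the groups compared, 1 with array weights, 5 without the 3 arrays, and 0 to 2 when each array was left out. The other counts of members called were 0 under every alternative run, and no named member that was called changed sign. The shares of all genes called under each alternative are not given here, so the counts of members cannot be set against them. The median over members ranged from 0.063 to 0.30 for IMQ on the high fat diet, -0.0052 to 0.12 for IMQ on chow, -0.18 to -0.093 for HFD against CD under vehicle, -0.12 to 0.12 for HFD against CD under IMQ and 0.00029 to 0.23 for the difference between diets. The median SE of a member was 0.16 for comparisons of 2 groups and 0.22 for the difference between diets. The smallest change of a called member was 0.40, above all of these medians.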
